A study of Oryza sativa Japonica Group with 74 samples.

Results

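The phyB mutant of rice (labelled OsphyB-/-, and phyb-1 in the series' design text), which lacks phytochrome B, was compared between 14 h light/10 h dark days (LD) and 10 h light/14 h dark days (SD) at ZT14, 14 h after lights on. ZT14 is the hour at which the lights go off in LD, and falls 4 h into darkness in SD. The members are 4 of the 74 RNA-seq libraries of the series, chosen by label: replicates 2 and 3 of phyB at ZT14 in LD and replicates 2 and 3 of phyB at ZT14 in SD. The other libraries are the wild type (WT), the elf3-1 elf3-2 double mutant and the lux mutant, all of Oryza sativa Japonica Group, with the wild type followed over 6 times of day and phyB and elf3-1 elf3-2 at ZT6, ZT14 and ZT18, in both day lengths. Per the labels every library comes from whole plants of 21 days, and the groups share no agent other than the day length. Whether the ZT14 plants in LD were taken just before or just after the lights went off is not stated, nor is whether replicates are separate plants or pools. The p-values therefore measure the spread between libraries within groups, estimated over all groups of the fit. Day length and hours of darkness cannot be told apart at ZT14, since the LD plants had 0 h and the SD plants 4 h of it.

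Phytochrome B is a red-light receptor that is switched on by red light and off by far-red light or slowly in darkness. In the light it restrains phytochrome-interacting factors, which promote shade and darkness responses, and in rice it delays flowering. The evening complex of ELF3, LUX and ELF4 represses clock and growth genes at night, and the rice florigen gene Hd3a is switched on through Ehd1, which Ghd7 represses in long days.

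Replicate 1 of both phyB groups at ZT14 went against its label and is left out of every value unless stated. A scale was built from genes that mark phyB at ZT18, where 0 is the mean of WT and elf3-1 elf3-2 together and 1 is phyB. On it the 4 libraries used stood between 0.98 and 1.01 and the 2 left out at 0.00 and 0.00. On the matching scale for elf3-1 elf3-2 those 2 libraries stood at 0.96 (LD) and 0.98 (SD). The phyB libraries used, replicates 2 and 3, stood there at 0.04 and 0.27 in LD and at -0.01 and -0.01 in SD. Replicates 2 and 3 of WT stood at 0.24 and 0.26 in LD. Replicate 1 of WT at ZT14, at 0.99 in both day lengths on the phyB scale, was left out for the same reason. Every replicate 1 of WT, phyB and elf3-1 elf3-2 at ZT6, ZT10 and ZT14 and replicate 3 of WT at ZT2 and ZT24 were left out. Earlier results of these data had put these libraries in doubt, and no positions are given here for hours other than ZT14. This left 57 libraries in the fit. The PHYB transcript was still detected in the mutant, at a lower level. At ZT14 it read 66.4 and 68.3 CPM in LD in phyB and 105 and 111 CPM in WT, and 101 and 116 CPM in SD in phyB and 183 and 235 CPM in WT. At the same hour and day length phyB lay below WT without overlap in 5 of 6 groups, the exception being ZT6 in LD, while over all hours the 14 phyB libraries used (66.4 to 120 CPM) and 14 WT libraries (69.4 to 235 CPM) overlapped. The libraries hold 36.9 M and 38.3 M counts in LD and 36.3 M and 39.4 M in SD, within the range of the whole series (25.7 M to 74.1 M). CPM are reads per 1 M of the scaled library total, a fold is the fitted LD level over the fitted SD level, and log2 fold changes are given with their standard error (SE). The labelled whole plant showed little root signal: of 8 root markers, RCc3 and AMT1;2 were at 0 in all 4 libraries, and the 8 summed to 14.3 to 14.7 CPM in LD and 16.7 to 19.9 CPM in SD. Of 5 markers of dividing and meristem cells OSH1 was at 0, and the sums were 15.1 to 17.8 CPM in LD and 16.3 to 19.7 CPM in SD. In such bulk samples fewer cells of a type and less RNA per cell cannot be told apart.

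Day length at ZT14 moved a large part of the phyB transcriptome. Of 28905 genes tested, 9842 passed an adjusted p of 0.05 in edgeR's quasi-likelihood test with Benjamini-Hochberg adjustment, which is 34% of those tested. In LD 4710 genes were higher (16.3%) and 5132 lower (17.8%), and the median of all genes was -0.02 on the log2 scale. These shares are the background for the counts over gene lists in phyB at ZT14 below. Most changes were small, with a median size of 0.74 among the genes called. A change of more than 2-fold was found in 1716 genes higher and 1647 lower, and of more than 16-fold in 131 higher and 108 lower. The largest rises at 5 CPM or more belonged to genes with no symbol in the tables used, Os05g0317900 (29.5 and 42.3 CPM in LD, 0 and 0.0864 CPM in SD) and Os07g0178700 (186 and 148 CPM, 0.329 and 0.302 CPM). Another 40 genes had at least 10 counts in both LD libraries and 0 in both SD libraries, and 48 genes the reverse. The largest falls at 5 CPM or more were those of Os03g0307300 and Os03g0307200, given below as NAS1 and NAS2. The balance depends on the scaling: 47.9% of the genes called were higher in LD with counts scaled by TMM, and 30 and 30.4% in limma on log2 TPM with a pseudocount of 1 or 0.1, where the median of all genes was -0.14 and -0.18. With all 17 left-out libraries added back, 6678 genes passed (3650 higher, 3028 lower), of which 6026 were among the 9842, all with the same sign. This fit of all 74 libraries is what is called with replicate 1 below. Its losses cannot be assigned to replicate 1 of phyB at ZT14 alone. Where a gene list below had no member past the threshold in a direction in phyB at ZT14, it also had 0 in that direction at an unadjusted p below 0.05 in edgeR and 0 in DESeq2. Of 84 genes named by rule that passed, 53 also passed with replicate 1 in the same direction, 28 lost the call and 3 (NAP, NiR and Fd-GOGAT) changed sign. Those lost were ELF3-1, ELF3-2, LUX, PRR37, PRR73, Hd3a, Ehd2, PIL13, PIL16, LHCA4, LHCB5, PSBR, PSAF, FNR1, GUN4, DVR, PORB, CRD1, GAPA, GAPB, RCA, NYC1, NIA1, GS1;2, GA2ox1, P5CS1, LSI1 and EF1A (adjusted p = 0.0641 to 0.674).

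Clock genes of the day and evening were at high levels at ZT14 in LD and low in SD. Of 10 clock genes 8 were higher in LD and none lower, and their median was 2.39 (6 higher with replicate 1). PRR95 (Os09g0532400, chromosome 9), a pseudo-response regulator that represses morning genes, had the largest change, with 344 and 387 CPM in LD and 11.6 and 8.21 CPM in SD (log2 fold change 5.14, SE 0.29, adjusted p = 8.79e-17). Both LD libraries stood far above both SD libraries. GI (Os01g0182600, chromosome 1), which acts with FKF1 in day-length sensing, read 1694 and 1669 CPM in LD and 315 and 313 CPM in SD, a 5.11-fold difference (adjusted p = 2.13e-08). FKF1, a blue-light F-box receptor, read 119 and 126 CPM against 21.8 and 21.6 CPM (5.38-fold, adjusted p = 2.5e-11). PRR73, PRR37, TOC1 and PRR59, the other pseudo-response regulators, were 11.3-, 6.67-, 2.72- and 2.36-fold higher in LD, in each case with both LD libraries above both SD libraries. The F-box genes ZTL1 and ZTL2 did not pass, at log2 0.13 and 0.15.

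The morning gene LHY (Os08g0157600, chromosome 8), a MYB repressor that normally peaks at dawn, was also higher in LD in phyB. It read 312 and 317 CPM in LD and 33.3 and 40.5 CPM in SD, with no overlap (log2 fold change 3.02, SE 0.21, adjusted p = 7.98e-15; 2.54 and adjusted p = 0.0115 with replicate 1). In the wild type at the same hour LHY was low in both day lengths, at 26.5 ± 0.229 CPM in LD and 30.6 ± 3.36 CPM in SD (SD, n = 2). The change in LD over SD was larger in phyB by 3.23 (log2; SE 0.29, adjusted p = 1.64e-10), and it was larger than in elf3-1 elf3-2 by 2.15 (adjusted p = 5.17e-07). At ZT18 the order in phyB was the reverse, with 438 ± 25.7 CPM in LD and 700 ± 91.9 CPM in SD (SD, n = 3 each; log2 -0.68, adjusted p = 0.000671).

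Of the 4 evening complex genes LUX was higher in LD, ELF3-1 and ELF3-2 were lower, and none passed with replicate 1. LUX (Os01g0971800, chromosome 1), the DNA-binding member, read 94.4 and 108 CPM in LD and 41.5 and 39.3 CPM in SD, 2.39-fold higher (adjusted p = 0.000209). ELF3-2 (Os01g0566100, chromosome 1), one of a pair of scaffold genes, read 51 and 52.7 CPM in LD and 93.4 and 98 CPM in SD, 1.93-fold lower (adjusted p = 1.05e-05). ELF3-1, the other scaffold gene, read 84.1 and 94.6 CPM against 111 and 129 CPM (log2 -0.49, adjusted p = 0.0199), and its call was lost without LD replicate 2 (adjusted p = 0.177) or SD replicate 3 (adjusted p = 0.191). ELF4a read 27.9 and 28.6 CPM in LD and 38.9 and 41.5 CPM in SD (adjusted p = 0.132). It passed as lower in LD in edgeR with only the compared groups (adjusted p = 0.00455). In limma on log2 TPM it also passed (adjusted p = 0.00146 and 0.00162 with pseudocounts of 1 and 0.1). The LD and SD libraries of all 4 genes did not overlap, but the share of all genes so separated was not counted. Against a background of 12.9% of all genes for the wild type and 11.5% for elf3-1 elf3-2, 0 of the 4 genes differed from either genotype in their change with day length in edgeR (0 at an unadjusted p below 0.05, and 0 in DESeq2).

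**Figure D1:**
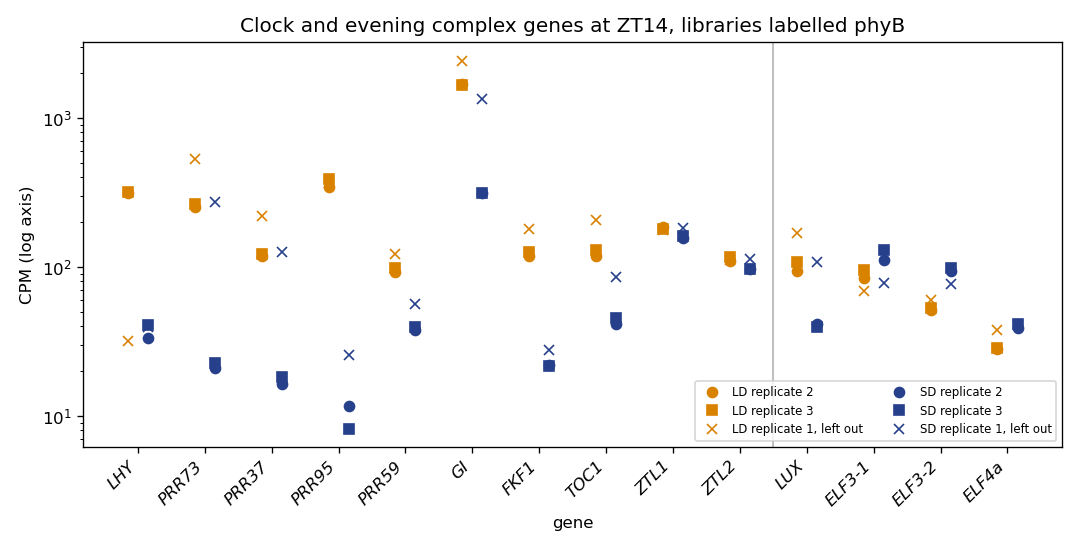
CPM on a log axis of 10 clock and 4 evening complex genes in each phyB library at ZT14, LD in orange and SD in blue, with circles for replicate 2, squares for replicate 3 and crosses for the replicate 1 libraries left out. The LD circles and squares lie above the SD ones in PRR95, GI, FKF1, LHY, the other PRR genes, TOC1 and LUX, and below them in ELF3-1, ELF3-2 and ELF4a.

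Florigen pathway genes were detected in phyB in SD and were at or near 0 in LD at ZT14. Of 11 flowering activators 5 were lower in LD and 3 higher (3 lower and 4 higher with replicate 1; 3 to 4 lower and 0 to 3 higher when 1 library was left out, with 0 higher without LD replicate 3). Ehd1 (Os10g0463400, chromosome 10), a response regulator that switches on florigen, read 0 and 0.154 CPM in LD and 4.63 and 4.56 CPM in SD (log2 fold change -5.87, SE 0.62, adjusted p = 1.61e-08). Hd3a (Os06g0157700, chromosome 6), a florigen gene, had no count in either LD library and 0.306 and 0.497 CPM in SD, at least 5.08-fold lower in LD against a floor of 3 counts per library. The Hd3a call (adjusted p = 0.0383) was lost when any 1 library was left out (adjusted p = 0.0522 to 0.151). How reads shared between close copies of a gene were counted is not given in the sources used here.

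MADS14 (Os03g0752800, chromosome 3), an AP1-like gene that acts downstream of florigen, read 0.457 and 0.488 CPM in LD and 7.29 and 9.7 CPM in SD (log2 -4.23, SE 0.37, adjusted p = 6.62e-12), with both LD libraries far below both SD libraries. Its relative MADS15 read 0 and 0.0771 CPM in LD and 0.235 and 0.216 CPM in SD and did not pass (adjusted p = 0.159). Wild-type SD levels of these genes at ZT14 stood below both phyB libraries, with Ehd1 at 0.301 ± 0.13 CPM and MADS14 at 0.973 ± 0.503 CPM (SD, n = 2). The difference between the genotypes in the change with day length did not pass for Ehd1 (adjusted p = 0.9) or MADS14 (adjusted p = 0.464). At the other times in phyB Ehd1 stood at 0.935 ± 0.229 CPM in LD and 2.81 ± 0.591 CPM in SD at ZT6 (SD, n = 2 each; log2 -1.56, adjusted p = 0.0323 in edgeR), and at 0.506 ± 0.0465 and 5.81 ± 0.516 CPM at ZT18 (SD, n = 3 each; log2 -3.53, adjusted p = 3.99e-09 in edgeR).

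Upstream activators moved less and not together. Ehd2 (a zinc-finger activator of Ehd1) read 0.834 and 0.848 CPM in LD and 1.41 and 1.88 CPM in SD (adjusted p = 0.00331, and adjusted p = 0.0874 without SD replicate 3). MADS50, a SOC1-like activator, was higher in LD at 79.2 and 103 CPM against 48.8 and 62.7 CPM (1.56-fold, adjusted p = 0.00119). MADS51 was 1.38-fold and Ehd3 1.27-fold higher in LD (adjusted p = 0.00482 and 0.0145). These last calls each rest on few libraries: MADS50, MADS51 and Ehd3 did not pass without LD replicate 3 (adjusted p = 0.0701, 0.102 and 0.21) or without SD replicate 2 (adjusted p = 0.0633, 0.142 and 0.119). In limma on log2 TPM MADS51 (adjusted p = 0.0528 and 0.0543 with pseudocounts of 1 and 0.1) and Ehd3 (adjusted p = 0.204 and 0.206) did not pass either. Ehd4 and MADS18 did not pass.

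Of 7 flowering repressors Ghd7 and MADS56 were higher in LD and none was lower, also with replicate 1. Without replicate 1, 16.3% of all genes were higher and 17.8% lower. Ghd7 (Os07g0261200, chromosome 7), a CCT-domain repressor of Ehd1, read 1.08 and 1.21 CPM in LD and had no count in either SD library (adjusted p = 1.92e-05). At ZT6 in phyB it was close in both day lengths, at 1.2 ± 0.246 CPM in LD and 1.17 ± 0.527 CPM in SD (SD, n = 2). The wild type had 1.72 ± 0.36 CPM in LD and 0.0514 ± 0.00675 CPM in SD at ZT14, and elf3-1 elf3-2 had 3.47 ± 0.793 and 1.35 ± 0.0303 CPM. The change differed from that in elf3-1 elf3-2 (adjusted p = 0.0118, and 0.0825 and 0.0957 without phyB SD replicate 2 or 3) but did not pass against the wild type (adjusted p = 0.632). MADS56 read 147 and 147 CPM in LD and 114 and 102 CPM in SD (log2 0.39, adjusted p = 0.000256). Hd1, the rice CONSTANS, had overlapping groups at 13.9 and 15.9 CPM and 14.6 and 16.8 CPM, and DTH8, COL4 and the kinase genes Hd6 and Hd16 did not pass either. COL4 passed in the wild type (log2 0.80), and the change in phyB less that in the wild type was -0.99 (adjusted p = 0.0342). The COL4 difference was lost without phyB LD replicate 2, phyB SD replicate 3 or any of the 4 WT libraries (adjusted p = 0.0728 to 0.162).

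**Figure D2:**
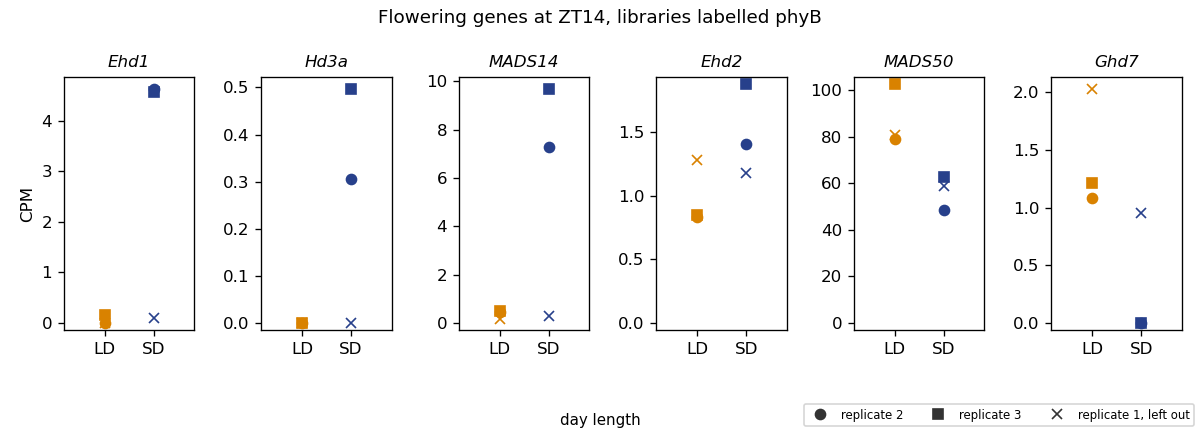
CPM on linear axes of 6 flowering genes in each phyB library at ZT14, LD in orange and SD in blue, with crosses for the replicate 1 libraries left out. Ehd1, Hd3a and MADS14 are at or near 0 in LD and detected in both used SD libraries, while Ghd7 is detected in LD and at 0 in both used SD libraries.

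Among 15 photoreceptor and light-signalling genes 9 were lower in LD and 4 higher (7 lower and 1 higher with replicate 1), with a median of -0.46. Over all genes 17.8% were lower and 16.3% higher. The other genotypes had a similar split, with 11 lower and 2 higher in the wild type (median -0.51) and 10 lower and 1 higher in elf3-1 elf3-2 (median -0.46). All 3 phytochrome genes were lower: PHYA read 114 and 115 CPM in LD and 160 and 156 CPM in SD, PHYC 122 and 124 and 155 and 167 CPM, and PHYB 66.4 and 68.3 and 101 and 116 CPM (adjusted p = 1.67e-06, 0.000228 and 1.68e-07). The blue-light receptor gene PHOT1 was 2.83-fold lower at 73.1 and 77.7 CPM against 192 and 215 CPM (adjusted p = 1.87e-10), whereas PHOT2 read 427 and 437 CPM and 425 and 436 CPM and did not pass. The cryptochromes CRY1a and CRY1b were lower in LD (log2 -0.39 and -0.46) and CRY2 higher (0.46). CRY1a did not pass without LD replicate 2 (adjusted p = 0.135) or SD replicate 3 (adjusted p = 0.258), nor CRY2 without any 1 of the 4 libraries (adjusted p = 0.0941 to 0.153).

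COP1 (Os02g0771100, chromosome 2), an E3 ligase that marks light-signalling proteins for breakdown, read 142 and 137 CPM in LD and 53.6 and 51.3 CPM in SD (log2 fold change 1.34, SE 0.10, adjusted p = 1.53e-13), with the LD libraries well above the SD ones. The wild type showed 84.1 ± 3.55 and 87.6 ± 3.66 CPM (SD, n = 2), and the difference in the change was 1.41 (adjusted p = 3.25e-09). The phytochrome-interacting factor-like genes split. PIL16 was higher in LD, at 69.5 and 73.7 CPM against 18 and 15.9 CPM (log2 2.01, adjusted p = 3.1e-11), and PIL15 at 198 and 230 CPM against 126 and 148 CPM (log2 0.58, adjusted p = 0.000871). PIL15 had only 18.8 ± 1.19 CPM in LD and 27.1 ± 1 CPM in SD in the wild type, where it was lower in LD, and the change in phyB was greater by 1.11 (adjusted p = 0.000154). PIL11 and PIL14 were 2.66- and 2.06-fold lower in LD (adjusted p = 2.35e-07 and 3.99e-10). PIL13 was lower too (adjusted p = 0.0395), a call lost without any 1 of the 4 libraries (adjusted p = 0.0952 to 0.204), and PIL12 did not pass.

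Genes of the light-harvesting antenna had the highest median change of the lists. Of 14 genes 13 were higher in LD and none lower, with a median log2 fold change of 3.17 against -0.02 for all genes (9 higher with replicate 1). Their summed level was 9010 to 9651 CPM in LD and 1007 to 1082 CPM in SD. CAB1R (Os09g0346500, chromosome 9), a photosystem II antenna gene, read 1192 and 1295 CPM in LD and 4.56 and 7.19 CPM in SD (log2 fold change 7.65, SE 0.55, adjusted p = 1.04e-13). LHCA4 (Os08g0435900, chromosome 8), of photosystem I, read 590 and 627 CPM and 6.32 and 5.68 CPM (log2 6.60, SE 0.41, adjusted p = 2.19e-15), and LHCA3 (Os02g0197600, chromosome 2) 847 and 847 CPM and 11 and 11.2 CPM (log2 6.18, SE 0.40, adjusted p = 5.16e-15). In each of these genes both LD libraries stood far above both SD libraries.

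LHCB2, LHCB5, LHCB3 and LHCA1 followed, 56.7-, 44.1-, 30.9- and 15.1-fold higher in LD. LHCB1, LHCB4, LHCB6, CAB2R and LHCA2 were between 4.13 and 5.41 times as high in LD as in SD, so members differed widely within the same 4 libraries. LHCA6 alone did not pass (55.7 and 63.3 CPM and 59 and 69.7 CPM, adjusted p = 0.533). Since antenna genes have close copies, reads could be split between them in the counting. In the wild type 11 of the 14 were higher in LD and 2 lower (20.6 and 20.5% of all genes). The change in phyB was more positive for 5 (LHCA3, LHCA5, LHCB1, LHCB4 and LHCA2), against 7.22% of all genes, and for 4 without WT SD replicate 3 and 11 without WT SD replicate 2. DESeq2 gave 9. LHCB1 was the gene lost without WT SD replicate 3 (adjusted p = 0.0749). LHCA5 was higher in LD in phyB (log2 0.75) and lower in the wild type (-1.06), a difference of 1.82 (adjusted p = 7.05e-08). In elf3-1 elf3-2 1 was higher and 2 lower (19.5 and 20% of all genes), and 13 had a more positive change in phyB (6.7% of all genes). LHCA3 read 693 ± 76.1 CPM in SD there (SD, n = 2), far above both phyB libraries in SD.

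**Figure D3:**
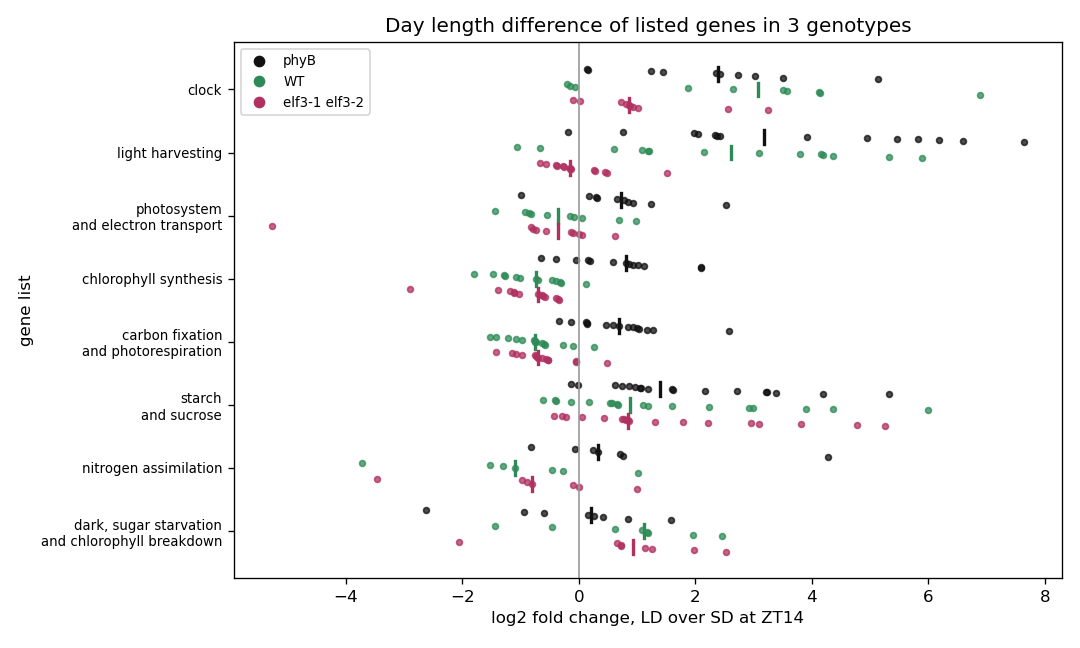
Log2 of LD over SD at ZT14 for the members of 8 gene lists in phyB, WT and elf3-1 elf3-2, each point a gene with a mean of at least 1 CPM in phyB LD or SD and each bar a median. In phyB the light harvesting, photosystem, chlorophyll and carbon lists lie mostly above 0, while in WT and elf3-1 elf3-2 the chlorophyll and carbon lists lie mostly below 0.

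Of 10 photosystem and electron transport genes 6 were higher in LD and 1 lower, with a median of 0.72 (3 higher and none lower with replicate 1). PSBS1 (Os01g0869800, chromosome 1), needed for dissipation of excess light, read 1354 and 1366 CPM in LD and 219 and 231 CPM in SD (log2 2.53, SE 0.15, adjusted p = 2.09e-16). PSAD, FNR1 and PETC, which serve photosystem I, ferredoxin reduction of NADP and the cytochrome complex, were 2.37-, 1.81- and 1.72-fold higher. PSBR was the gene lower in LD, at 56.5 and 48.1 CPM against 98.8 and 98.7 CPM (adjusted p = 0.0237), a call lost without any 1 of the 4 libraries (adjusted p = 0.0708 to 0.156). The change in LD over SD was more positive in phyB than in the wild type for 8 of the 10 (7 to 9 when 1 library was left out), and more positive than in elf3-1 elf3-2 for all 10 (9 or 10).

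Chlorophyll synthesis genes were mostly higher in LD in phyB and mostly lower in LD in the other genotypes. In phyB 8 of 13 were higher and 1 (CHLD) lower, with a median of 0.80 (2 higher with replicate 1). CAO1 (Os10g0567400, chromosome 10), the oxygenase that makes chlorophyll b, read 248 and 232 CPM in LD and 55.5 and 51 CPM in SD (4.3-fold, adjusted p = 9.2e-14). CHLH (Os03g0323200, chromosome 3), a subunit of magnesium chelatase, read 506 and 530 CPM and 106 and 126 CPM (4.27-fold, adjusted p = 9.39e-09). For both genes the LD libraries lay close to each other and well above the SD libraries. GUN4, DVR, PORB, CRD1, HEMA1 and CHLM were between 1.51 and 2.17 times as high in LD. The calls of CHLM (without LD replicate 3, adjusted p = 0.206, or SD replicate 2, adjusted p = 0.21) and CHLD (without LD replicate 3, SD replicate 2 or SD replicate 3, adjusted p = 0.0712 to 0.199) rest on single libraries. In the wild type 0 of 13 were higher and 7 lower, at a median of -0.73, and in elf3-1 elf3-2 0 were higher and 10 lower (also 0 higher at an unadjusted p below 0.05 in edgeR in both). The change was more positive in phyB than in WT for 12 of 13 genes (11 or 12 when 1 library was left out, 12 in DESeq2), and more positive than in elf3-1 elf3-2 for 12 of 13 (10 to 12). CRD1, a subunit of the cyclase that closes the fifth ring, was 1.82-fold higher in LD in phyB and fell from 312 ± 63.5 CPM in SD to 89.5 ± 9.96 CPM in LD in the wild type (SD, n = 2). The difference in its change was 2.67 (log2; SE 0.27, adjusted p = 2.76e-09). With replicate 1 added, the change in CRD1 in phyB was 0.52 (adjusted p = 0.405).

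Carbon fixation and photorespiration genes showed the same contrast between genotypes. In phyB 10 of 15 were higher in LD and 1 (HPR1) lower, with a median of 0.68 (3 higher with replicate 1), whereas in the wild type 0 were higher (1 at an unadjusted p below 0.05 in edgeR) and 12 lower at a median of -0.75. Their summed level in phyB was 25468 to 26118 CPM in LD and 16355 to 16526 CPM in SD. GDCP (Os01g0711400, chromosome 1), the P protein of glycine decarboxylase, had the largest change, with 1374 and 1283 CPM in LD and 211 and 217 CPM in SD (log2 fold change 2.57, SE 0.13, adjusted p = 8.03e-19). Its LD libraries both stood well above its SD libraries. RCA (Os11g0707000, chromosome 11), Rubisco activase, read 3817 and 3507 CPM in LD and 1710 and 1800 CPM in SD (1.99-fold, adjusted p = 5.06e-06). Wild-type RCA went the other way, at 950 ± 23 CPM in LD and 2545 ± 195 CPM in SD (SD, n = 2), and the change differed by 2.42 (SE 0.23, adjusted p = 8.22e-10). CATC (catalase), GAPA, GAPB, cpFBPase and PRK of the Calvin cycle were 2.43-, 2.25-, 2.04-, 1.91- and 1.8-fold higher in LD. Rubisco small-subunit genes RBCS2 and RBCS5 were 1.6- and 1.39-fold higher and RBCS3 and RBCS4 did not pass, but these near copies may share reads. RBCS5 did not pass without LD replicate 2, SD replicate 2 or SD replicate 3 (adjusted p = 0.0589 to 0.148), nor HPR1 without LD replicate 2 (adjusted p = 0.2) or SD replicate 3 (adjusted p = 0.172). The change was more positive in phyB than in the wild type and than in elf3-1 elf3-2 for 14 of 15 genes each (13 or 14 when 1 library was left out).

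Starch genes were higher in LD in phyB, and most also in the other genotypes. Of 20 genes 16 were higher and none lower, with a median of 1.38 (15 higher with replicate 1), against 13 higher and 3 lower in the wild type and 14 and 2 in elf3-1 elf3-2. Shares higher and lower over all genes were 16.3 and 17.8% in phyB, 20.6 and 20.5% in WT, and 19.5 and 20% in elf3-1 elf3-2. GBSSII (Os07g0412100, chromosome 7), the granule-bound starch synthase of leaves, read 1803 and 1822 CPM in LD and 43.3 and 42.6 CPM in SD (log2 fold change 5.33, SE 0.23, adjusted p = 1.43e-20). AGPL1 (Os05g0580000, chromosome 5), a large subunit of ADP-glucose pyrophosphorylase, read 524 and 562 CPM and 28.5 and 28 CPM (log2 4.20, SE 0.32, adjusted p = 2.97e-13). In both genes the replicates lay close to each other and the day lengths far apart. The branching enzyme BEIIa and the synthases SSI and SSIIIb were 10.4-, 9.37- and 9.23-fold higher, and the small subunit AGPS1 4.51-fold. Genes of starch breakdown were higher too: PUL, a debranching enzyme, 6.56-fold, DPE2, which handles maltose, 3.01-fold, ISA3 1.94-fold, and GWD1, which phosphorylates starch, 1.82-fold. SUT1 and AGPL2 did not pass. Against the wild type 7 of 20 had a more positive change in phyB (6 or 7 when 1 library was left out), where 7.22% of all genes did. SSI had a less positive change, and AGPS2 went from a log2 of -0.39 in WT to 1.18 in phyB (difference 1.57, adjusted p = 8.22e-10). The SSI difference (adjusted p = 0.019) was lost without phyB LD replicate 2, phyB SD replicate 2, WT LD replicate 2 or WT SD replicate 3 (adjusted p = 0.0557 to 0.13).

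Among 7 nitrogen assimilation genes 4 were higher in LD and 1 lower (1 higher with replicate 1). NIA1 (Os08g0468100, chromosome 8), a nitrate reductase, read 301 and 332 CPM in LD and 13.3 and 17.7 CPM in SD (log2 fold change 4.28, SE 0.20, adjusted p = 1.14e-19; 0.78 and adjusted p = 0.441 with replicate 1). The wild type had the reverse order, at 112 ± 18.7 CPM in LD and 322 ± 41 CPM in SD, as did elf3-1 elf3-2 at 257 ± 17.4 and 494 ± 94.2 CPM (SD, n = 2). The difference in change was 5.81 against the wild type (SE 0.26, adjusted p = 1.04e-18) and 5.25 against elf3-1 elf3-2 (adjusted p = 2.17e-17). The nitrite reductase gene NiR read 346 and 376 CPM and 181 and 226 CPM in phyB (log2 0.76, adjusted p = 0.0233), but not past the threshold without LD replicate 3 (adjusted p = 0.109) or SD replicate 2 (adjusted p = 0.195). Wild-type NiR stood at 109 ± 20 CPM in LD and 1433 ± 221 CPM in SD, and the change differed by 4.48 (SE 0.39, adjusted p = 1.53e-10). The glutamine synthetase gene GS1;1 was 1.63-fold higher and GS1;2 1.78-fold lower in LD (adjusted p = 2.66e-06 and 0.00014). Fd-GOGAT was higher (adjusted p = 0.0384), a call lost without any 1 of the 4 libraries (adjusted p = 0.0939 to 0.145).

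Of 9 genes of darkness, sugar starvation and chlorophyll breakdown 3 were higher in LD and 2 lower (2 and 2 with replicate 1). Over all genes 16.3% were higher and 17.8% lower. The sugar-signalling genes TPS1, a trehalose-phosphate synthase, and SnRK1A, an energy-sensing kinase, were 2.99- and 1.8-fold higher (adjusted p = 1.03e-13 and 1.45e-09). ASN1, an asparagine synthetase, read 9.79 and 7.2 CPM in LD and 52.6 and 47.2 CPM in SD (adjusted p = 0.0119, and adjusted p = 0.0593 and 0.105 without LD replicate 2 or 3). NAP, a NAC factor of leaf senescence, read 10.3 and 13.4 CPM in LD and 19.7 and 23.4 CPM in SD (log2 -0.94, adjusted p = 0.00348; adjusted p = 0.0833 without LD replicate 2 and 0.0512 without SD replicate 3). The wild type had NAP higher in LD (log2 1.17), and the difference passed (adjusted p = 2.53e-05). The chlorophyll breakdown genes SGR and NYC3 read 52.8 and 56.6 and 216 and 216 CPM in LD and 45.1 and 42.8 and 188 and 182 CPM in SD and did not pass in phyB. Both were higher in LD in the wild type (log2 2.46 and 1.96), and the change in phyB was lower (differences -2.21 and -1.80, adjusted p = 0.000661 and 8.53e-05). NYC1, chlorophyll b reductase, was 1.33-fold higher in LD (adjusted p = 0.0423), a call lost without any 1 of the 4 libraries (adjusted p = 0.0506 to 0.233).

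Gibberellin genes moved both ways: of 15 tested 4 were higher in LD and 6 lower, against 16.3 and 17.8% of all genes. These counts were 2 and 4 with replicate 1, and 2 or 3 and 4 or 5 when any 1 library was left out. GA2ox6 (Os04g0522500, chromosome 4), an oxidase that inactivates gibberellins, read 47.1 and 51 CPM in LD and 3.97 and 3.95 CPM in SD (log2 fold change 3.56, SE 0.14, adjusted p = 2.69e-21). The wild type had less in both, at 7.08 ± 0.852 and 0.206 ± 0.027 CPM (SD, n = 2), and the change in phyB less that in WT was -1.53 (adjusted p = 0.012, and 0.054 and 0.173 without WT SD replicate 2 or 3). GA2ox9 went the other way, at 1.86 and 1.39 CPM in LD and 7.69 and 7.69 CPM in SD (adjusted p = 2.19e-06). Of the biosynthetic genes KO2, ent-kaurene oxidase, and GA20ox1 were 3.2- and 3.24-fold lower in LD, and GA3ox2, which makes active gibberellin, was higher at 3.52 and 3.16 CPM against 0.259 and 0.324 CPM (adjusted p = 2.49e-08). GA2ox1 had no count in LD and 0.141 and 0.194 CPM in SD, at least 2.13-fold lower in LD, a call lost without LD replicate 2 or 3 or SD replicate 3 (adjusted p = 0.0632 to 0.0854). EUI1 and GA2ox3 (higher) and KAO and GID2 (lower) also lost their calls without 1 library or another (adjusted p = 0.0507 to 0.288). Receptor gene GID1 and the DELLA repressor SLR1 did not pass. Of 6 expansin genes, which loosen cell walls, 3 were lower in LD (4 with replicate 1). EXPA4 read 16.8 and 17.6 CPM in LD and 62.9 and 71.4 CPM in SD (4.08-fold lower, adjusted p = 2.62e-07). EXPB3 and EXPB4 were lower by 0.77 and 1.14 on the log2 scale, EXPB3 not past the threshold without LD replicate 2 or SD replicate 3 (adjusted p = 0.105 and 0.104) and EXPB4 not without LD replicate 3 (adjusted p = 0.231).

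Of 9 cold and drought genes 2 were lower in LD, a share near that of all genes (17.8%), RAB16A at 0.108 and 0.309 CPM against 2.12 and 1.9 CPM (adjusted p = 0.00865; 0.0898 without LD replicate 2) and P5CS1, a proline synthesis enzyme, at 48.5 and 39.5 CPM against 64.3 and 54.4 CPM (adjusted p = 0.0011; 0.0795 without LD replicate 3). The 1 gene called of 8 defence genes, NH1, a rice NPR1, was 2.01-fold lower in LD (adjusted p = 2.35e-08), where 17.8% of all genes were lower. Defence genes differed widely between replicates, CPS4, a phytoalexin synthesis gene, reading 1.43 and 16.4 CPM in LD and 40.5 and 19.1 CPM in SD. PR1a, a pathogenesis-related gene, read 4.52 and 8.41 CPM and 11.8 and 7.52 CPM in phyB, with overlapping groups. PR1a in the wild type was at 7.46 ± 0.668 CPM in LD and 0.271 ± 0.0536 CPM in SD (SD, n = 2), and the change differed by -5.42 (SE 1.09, adjusted p = 0.000509). HSP101, a heat-shock chaperone, was 3-fold higher in LD (adjusted p = 0.000138) and the other 2 heat-shock genes did not pass. The silicon transporter LSI1 was the 1 root marker called of 8 (lower, adjusted p = 0.0346), where 17.8% of all genes were lower. Its call was lost without LD replicate 2 or 3 or SD replicate 3 (adjusted p = 0.112 to 0.265). Of 5 dividing-cell and meristem markers 0 passed in edgeR (0 at an unadjusted p below 0.05, and 0 in DESeq2). The reference genes were not level: ACT1 was 1.82-fold higher in LD (adjusted p = 2.02e-08), and EF1A lower by 0.30 on the log2 scale (adjusted p = 0.0204; 0.255 without LD replicate 2 and 0.29 without SD replicate 3).

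Over all genes, the response of phyB to day length was set against that of the wild type at the same hour, where 11856 genes passed (41%). Of the 9842 genes called in phyB, 6506 were called in the same direction in the wild type, 66.1% of the phyB list and 54.9% of the WT list, and 425 in the opposite direction. Across 17287 genes of at least 5 CPM the log2 changes had a Pearson r of 0.67 and a Spearman rho of 0.66, a description across genes, which are not independent replicates. The difference between the genotypes in LD over SD passed for 3740 genes (12.9%), with 2086 more positive in phyB (7.22%) and 1654 more negative (5.72%). By the sign of the estimates, in 1279 of them both genotypes had the same direction with the smaller change in phyB, in 612 the same direction with the larger change in phyB, and in 1849 opposite directions. Among clock genes 6 of 10 differed, FKF1, PRR95, TOC1, GI and PRR59 (3 or 4 such genes when 1 library was left out) having smaller changes in phyB (phyB less WT -1.71, -1.75, -1.19, -1.14 and -0.64 on the log2 scale, adjusted p = 0.000159, 0.00273, 0.0019, 0.045 and 0.0097), while LHY had the larger change in phyB. The GI difference was lost without any 1 of the 8 libraries (adjusted p = 0.0894 to 0.152) and the PRR59 difference without phyB LD replicate 2 (adjusted p = 0.069). In FKF1 the LD level was 231 ± 10.4 CPM in the wild type (SD, n = 2), above both phyB libraries. The count fell to 2292 without WT SD replicate 3. With replicate 1 it was 0 in edgeR (779 genes at an unadjusted p below 0.05). In that fit each phyB and WT group at ZT14, in LD and in SD, held a library that stood with another genotype. The other left-out libraries were in it too, and what lowered the count was not tested. In limma 30.8 and 31.2% of the genes called were more positive in phyB (pseudocount 1 and 0.1), against 55.8% in edgeR.

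Against elf3-1 elf3-2, in which 11416 genes passed (39.5%), 3329 genes differed in the change (11.5%), with 1937 more positive in phyB (6.7%) and 1392 more negative (4.82%). Genes called in the same direction in both numbered 6366, which is 64.7% of the phyB list and 55.8% of the elf3-1 elf3-2 list, and 335 were called in opposite directions. Members with more positive changes in phyB came from light harvesting (13 of 14), photosystem genes (10 of 10), chlorophyll synthesis (12 of 13), carbon fixation (14 of 15) and the clock (5 of 10 in every fit that left out 1 library: LHY, PRR37, PRR73, PRR95 and GI). GI read 2823 ± 284 CPM in LD and 1594 ± 90.6 CPM in SD in elf3-1 elf3-2 (SD, n = 2), with an SD level well above that of phyB. Its change was larger in phyB by 1.55 (adjusted p = 0.0052). PSBR had a log2 change of -0.99 in phyB and -5.28 in elf3-1 elf3-2, a difference of 4.30 (SE 0.68, adjusted p = 2.42e-05). The count was 2121 without elf3-1 elf3-2 SD replicate 3, and 0 in edgeR with replicate 1 (1445 at an unadjusted p below 0.05). In limma 31 and 31.9% of the genes called were more positive in phyB, against 58.2% in edgeR.

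To compare plants after the same 4 h of darkness, phyB at ZT18 in LD (3 libraries) was set against phyB at ZT14 in SD, the same SD libraries as above, so the 2 comparisons share them. The groups still differ in time since lights on (18 and 14 h) and in hours of light (14 and 10 h). These cannot be told apart from day length here. Here 1926 genes passed (6.66%), 1029 higher (3.56%) and 897 lower (3.1%), with 313 higher and 274 lower by more than 2-fold. That count rests on each SD library: it was 933 without SD replicate 2 and 739 without SD replicate 3, and 107 with replicate 1 added. Of the clock genes LHY and PRR95 passed, with log2 differences of 3.55 and 2.14 here and of 3.02 and 5.14 at ZT14. GI and FKF1 stood at -0.17 and 0.07 here and did not pass (adjusted p = 0.805 and 0.94). Of 11 flowering activators 4 were lower and 1 higher, Ehd1 at -3.20 and MADS14 at -3.91 (adjusted p = 6.76e-07 and 6.38e-12) and MADS50 at 0.77 (adjusted p = 0.000412, and 0.0618 without SD replicate 2; 3 activators were lower without any 1 library). Hd3a and Ehd2, called at ZT14, did not pass here (adjusted p = 0.0503 and 0.0607), and of the 7 repressors COL4 was higher by 1.04 (adjusted p = 0.000347). Ehd1 in LD at ZT18 was 0.506 ± 0.0465 CPM (SD, n = 3), below both SD libraries at ZT14.

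Light harvesting genes were still higher at 4 h of darkness in LD, with 10 of 14 called (5 without SD replicate 2 and up to 9 without another library) and a median of 1.09, and LHCA3 at a log2 of 3.24 (adjusted p = 3.4e-08). Its level was 107 ± 15.2 CPM at ZT18 in LD (SD, n = 3), 847 and 847 CPM at ZT14 in LD and 11 and 11.2 CPM at ZT14 in SD. Of 13 chlorophyll genes 3 were higher (CHLH, CRD1 and CAO1), of 20 starch genes 8 higher and none lower, with GBSSII at 2.90, and of 15 carbon genes 1 (GDCP) higher and 3 lower (0 to 3 lower when 1 library was left out). CHLH did not pass without SD replicate 2 (adjusted p = 0.104), nor CRD1 without SD replicate 2 (adjusted p = 0.16), SD replicate 3 (adjusted p = 0.0957) or ZT18 LD replicate 2 (adjusted p = 0.0727). NIA1 was higher by 1.22 (adjusted p = 5.55e-06) and NiR by 1.12 (adjusted p = 0.00287, and 0.101 without SD replicate 2).

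Day length was also compared in phyB at 2 other times of day. At ZT6, in the light in both day lengths, 2193 genes passed (7.59%; 3.85% higher and 3.74% lower). Of the 14 antenna genes 0 passed in edgeR (3 lower at an unadjusted p below 0.05), and of the 10 clock genes LHY passed, higher in LD. At ZT18, with 4 h of darkness in LD and 8 h in SD, 8246 genes passed (28.5%; 14.1% higher and 14.4% lower). There all 15 carbon genes and 11 of 13 chlorophyll genes were lower in LD, and of 10 clock genes 6 were higher and 3 lower (LHY, ZTL1 and ZTL2). CAO1 stood at 123 ± 13.4 CPM in LD and 283 ± 16.1 CPM in SD at ZT18 (SD, n = 3; log2 -1.21, adjusted p = 9.41e-10 in edgeR), the reverse of ZT14. NIA1 was likewise lower in LD at ZT18, at 36.7 ± 4.37 CPM against 209 ± 20.2 CPM (log2 -2.51, adjusted p = 1.64e-15 in edgeR), its SD level lying above that at ZT14 in SD. COP1 no longer differed past the threshold at ZT18 (adjusted p = 0.226), and differences between the effects at these times were not tested.

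**Figure D4:**
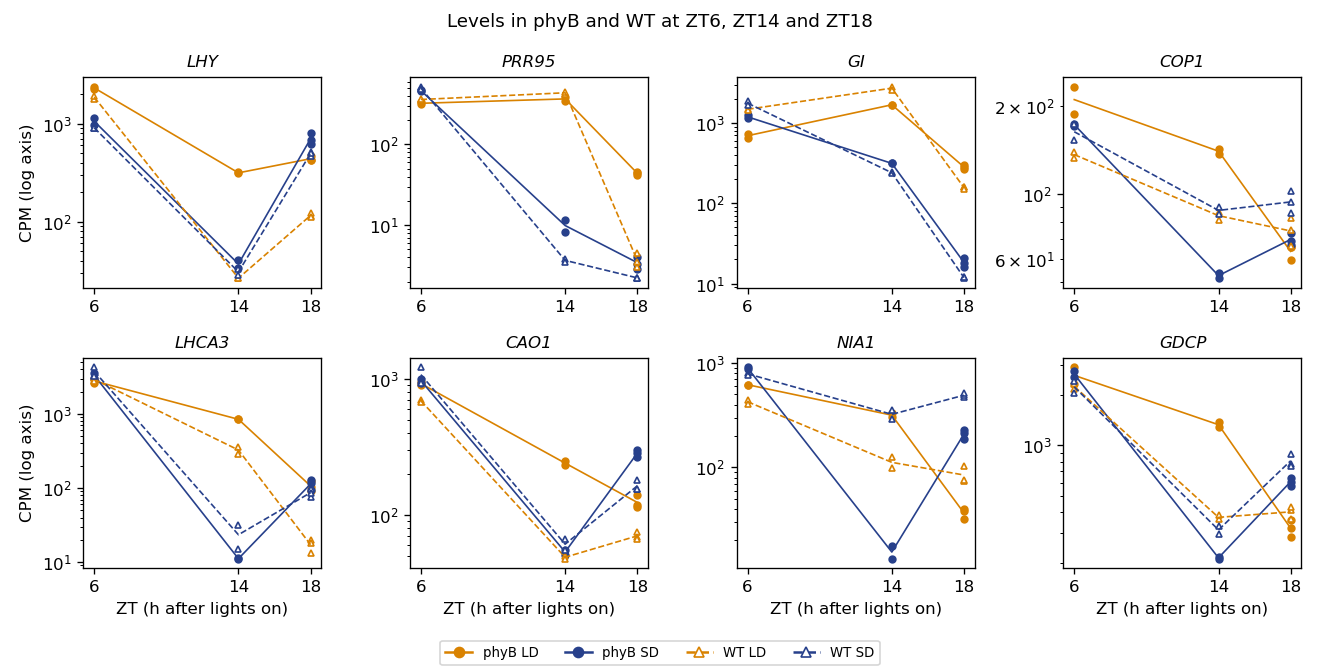
CPM on a log axis of 8 genes at ZT6, ZT14 and ZT18 in phyB (filled points, solid lines) and WT (open points, dashed lines), LD in orange and SD in blue, points being libraries and lines passing through group means. At ZT14 the phyB LD points of LHY, COP1, CAO1, NIA1 and GDCP lie above those of phyB SD, while the WT points of LHY, COP1 and CAO1 lie close together.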

How the data were processed

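RNA was taken with an RNeasy plant kit, treated with DNase and made into NEBNext Ultra II Directional libraries, per the labels' protocols. HISAT2, StringTie and the IRGSP-1.0 build are named in the submitters' processing notes, without versions; the strand setting of the counting is not given in the sources used here. The authors deposited raw read counts per gene and, separately, TPM; 1 deposited column mapped to no sample was not used, and the WT columns named for ZT00 were matched to the ZT24 labels.

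Counts of 57 of 74 libraries (36.3 M to 39.4 M counts in the 4 compared) were fitted with 1 mean per group in edgeR 4.0.16 (R 4.3.3) with TMM scaling (factors 0.789 to 1.23), filterByExpr and the robust quasi-likelihood test, with Benjamini-Hochberg adjustment at 0.05 over 28905 of 37849 genes. The fit had 32 residual degrees of freedom (median prior 5.21), so groups of 2 shared one estimate of the spread. Differences between genotypes were tested as interaction contrasts. The fit was also run on counts simulated from its own model with few genes changed, which cannot check the model or the scaling on these data. Gene symbols were assigned to identifiers by hand in 20 lists: of 196, 101 symbols are in the RefSeq gene table (assembly ASM3414082v1), 98 on the same chromosome, and 3 were dropped. The members and lists were chosen with earlier results of these data known. Named genes are every clock, evening complex and flowering gene and, for each other list, up to 6 past the threshold by size and 2 not past it by level, plus up to 8 members for each further contrast. Other genes named are members of the lists. Counts over the lists include 1 gene that is not reported here. Nearly all of the 10 largest rises and falls lack a symbol in the tables used. The first 2 rises are given by identifier and the first 2 falls as NAS1 and NAS2. Of the other rises CAB1R and NR2 are given. Alternatives were all 74 libraries, only the compared groups, other size factors, no filter, DESeq2 1.42.0, limma 3.58.1 on log2 TPM (pseudocounts 1 and 0.1), a replicate term, and single libraries left out. Intervals for single libraries are not given, since each value is shown per library; p-values cover the spread between libraries.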

Additional observations from a re-analysis of the deposited data

Results flagged for a closer look

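The change with day length at ZT14 differed between phyB and the wild type in 3740 genes, by a test of the difference itself (edgeR's quasi-likelihood interaction contrast, 12.9% of those tested). The list members with counts in every group and the largest differences (phyB less WT, log2) follow. NIA1, nitrate reductase, differed by 5.81 (SE 0.26, adjusted p = 1.04e-18), with a change of 4.28 in phyB and -1.53 in WT. NiR, nitrite reductase, differed by 4.48 (SE 0.39, adjusted p = 1.53e-10), from 0.76 in phyB and -3.72 in WT. The clock gene LHY differed by 3.23 (SE 0.29, adjusted p = 1.64e-10), from 3.02 and -0.21. The chlorophyll synthesis gene CRD1 differed by 2.67 (SE 0.27, adjusted p = 2.76e-09), from 0.86 and -1.80. GA2ox9, of gibberellin inactivation, differed by 2.68 (SE 0.66, adjusted p = 0.00412), being lower in LD in both genotypes (-2.31 and -4.99).

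Of 8 defence genes 3 differed in the other direction (1 to 4 when 1 library was left out), against 5.72% of all genes, and 0 differed from elf3-1 elf3-2 in edgeR (1 at an unadjusted p below 0.05, and 0 in DESeq2). PR1a stood at -5.42 (SE 1.09, adjusted p = 0.000509), from -0.64 in phyB and 4.78 in WT, CPS4 at -4.73 (SE 1.52, adjusted p = 0.0344), from -1.79 and 2.94, and PR1b at -3.14 (SE 0.94, adjusted p = 0.0217), from -0.18 and 2.97. NIA1, NiR, LHY, CRD1 and PR1a passed in all 16 alternatives run without replicate 1. GA2ox9 passed in 15, failing without WT LD replicate 2 (adjusted p = 0.0715). PR1b passed in 11, with adjusted p = 0.0593 to 0.122 without 1 of 5 libraries, and CPS4 in 8, with adjusted p = 0.064 to 0.153 without 1 of 6 libraries and losses also with only the compared groups and with a replicate block.

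Against elf3-1 elf3-2 3329 genes differed (11.5%), again by the interaction contrast. Among list members with counts in every group the largest differences were mostly in antenna genes. LHCA4 differed by 6.86 (SE 0.50, adjusted p = 6.62e-12), from 6.60 in phyB and -0.27 in elf3-1 elf3-2, and LHCA3 by 6.33 (SE 0.49, adjusted p = 2.28e-11), from 6.18 and -0.15. CAB1R differed by 6.14 (SE 0.63, adjusted p = 1.4e-08), from 7.65 and 1.51, LHCB5 by 5.85 (SE 0.50, adjusted p = 2.9e-10), from 5.46 and -0.38, LHCB2 by 5.54 (SE 0.57, adjusted p = 1.35e-08), from 5.82 and 0.28, and LHCB3 by 4.50 (SE 0.44, adjusted p = 3.94e-09), from 4.95 and 0.45. NIA1 differed by 5.25 (SE 0.26, adjusted p = 2.17e-17), from 4.28 and -0.97. PSBR differed by 4.30 (SE 0.68, adjusted p = 2.42e-05), being lower in LD in both (-0.99 and -5.28). These 8 genes passed in all 16 alternatives run without replicate 1. With all 17 left-out libraries added back, 0 of the genes named here passed in either comparison (adjusted p = 0.927 to 1 in edgeR). Groups of 2 libraries were too small for a check of single libraries standing apart.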

How the results depend on the processing

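Adding all 17 left-out libraries back changed most: the difference from the wild type and from elf3-1 elf3-2 then passed in 0 and 0 genes, and phyB ZT18 LD over ZT14 SD in 107. Genes called for phyB LD over SD at ZT14 were 7509 to 8092 when 1 library was left out, the difference from WT 2292 to 3346, that from elf3-1 elf3-2 2121 to 3062, and ZT18 LD over ZT14 SD 739 to 1566. DESeq2 called 9841, 4171, 3690 and 2181. Leaving out WT and elf3-1 elf3-2 libraries, and estimating the dispersion first (9374 genes), were chosen after seeing the data. Whether replicate numbers pair the libraries cannot be settled with 2 pairs a genotype, where deviations correlated at 0.15 (phyB), 0.22 (WT) and 0.07 (elf3-1 elf3-2). A replicate block called 11388 genes (5407 higher, 5981 lower), against 9842 without it. In the other 3 comparisons it called 5099, 4782 and 1565 genes, against 3740, 3329 and 1926. LSI1 lost its call in edgeR with the block (adjusted p = 0.052) and with no low count filter (0.0588).

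Of 84 named genes that passed, 64 also passed without any 1 library and 20 lost the call in at least 1. DESeq2 kept 83 and limma 78. Genes whose estimate changed sign follow; only NAP, NiR and Fd-GOGAT, with replicate 1, were among those past the threshold, and the cause was not tested. With replicate 1 Hd1 stood at 0.05, PSBO at -0.01, PSBP at -0.07, GSA at -0.12, RBCS3 at -0.19, NAP at 0.30, NiR at -0.92, Fd-GOGAT at -0.07, GS2 at -0.19, NADH-GOGAT1 at 0.02, SALT at -0.06, WRKY45 at -0.08, IRT1 at 0.02 and CDKB2;1 at -0.01. In limma with pseudocounts of 1 and 0.1 ZTL1 stood at -0.03 and -0.03, ZTL2 at -0.01 and -0.01, Ehd4 at -0.02 and -0.02, Hd16 at -0.10 and -0.11, GSA at -0.02 and -0.02, RBCS3 at -0.01 and -0.01, SLR1 at -0.05 and -0.05, and WRKY45 at -0.11 and -0.11. SUT1 and IRT1 stood at 0.02 and 0.02 with only the compared groups, 0.02 and 0.03 with DESeq2 size factors in edgeR, 0.03 and 0.03 with no low count filter, and 0.02 and 0.03 in DESeq2. When 1 library was left out DTH8 ran from -0.36 to 0.15, SUT1 from -0.04 to 0.04, NADH-GOGAT1 from -0.22 to 0.09, SLR1 from -0.01 to 0.23, GID1 from -0.21 to 0.06, WRKY45 from -0.10 to 0.21, HSFA2a from -0.22 to 1.29 and IRT1 from -0.03 to 0.03. Genes with few counts, such as Hd3a and GA2ox1, are at the limit of what this depth can show.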

Other observations

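Genes of iron uptake and storage moved in opposite directions with day length in phyB at ZT14; they were chosen after their values were seen. NAS1 (Os03g0307300, chromosome 3), a nicotianamine synthase that serves iron chelation, read 0.0807 and 0 CPM in LD and 22.1 and 14.3 CPM in SD (adjusted p = 1.45e-09), with 3 counts in LD in all. NAS2 read 0.108 and 0 CPM in LD and 14.7 and 9.9 CPM in SD (log2 fold change -7.84, SE 0.96, adjusted p = 1.56e-09). NAAT1 and DMAS1, which act after nicotianamine in the making of mugineic acids, were lower in LD too, at 19.5 and 19.6 CPM against 74.1 and 70.9 CPM and 17.6 and 20.6 CPM against 42.1 and 40.5 CPM (adjusted p = 0.000135 and 7.77e-08). NAS3 went the other way, with 8.21 and 9.41 CPM in LD and 2.56 and 2.23 CPM in SD (adjusted p = 2.43e-05). The ferritin genes FER1 and FER2, whose products store iron, were 1.76- and 1.88-fold higher in LD (adjusted p = 0.00328 and 0.000552), and the transporter genes YSL2 and YSL15 did not pass. In the wild type FER1, FER2 and NAS3 were also higher in LD (log2 1.49, 1.73 and 0.80) and DMAS1 lower (-0.62), while NAAT1 (-0.91) did not pass. All of them passed in elf3-1 elf3-2 in the same directions as in phyB. The difference in change between phyB and either genotype passed for none of them (adjusted p = 0.0592 to 0.715 in edgeR). Wild-type plants had almost no counts of NAS1 and NAS2 at ZT14, NAS1 at 0.0253 ± 0.0358 CPM in LD and 0.0233 ± 0.033 CPM in SD and NAS2 at 0.0742 ± 0.0333 and 0.0466 ± 0.0659 CPM (SD, n = 2). These are too few to compare their change with that of phyB. With replicate 1 added, the adjusted p in edgeR was 7.66e-07 for NAS1 and 1.45e-07 for NAS2. Yet replicate 1 itself showed no rise in SD, NAS1 reading 0.0121 CPM in LD and 0 in SD and NAS2 0.0726 and 0.0514 CPM. In phyB at ZT18 in SD both genes stood at 0 CPM (n = 3). Libraries of a group could also differ widely, NAS1 standing at 2.49 ± 3.48 CPM in phyB at ZT6 in SD (SD, n = 2).

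The other nitrate reductase genes, also chosen after their values were seen, were higher in LD with NIA1. NR2 (Os02g0770800, chromosome 2) read 58.1 and 70.4 CPM in LD and 0.329 and 0.13 CPM in SD (log2 fold change 8.07, SE 0.57, adjusted p = 3.72e-14), and its change exceeded that of the wild type by 9.33 (adjusted p = 2.86e-12) and that of elf3-1 elf3-2 by 7.73 (adjusted p = 8.65e-10). NIA2 read 145 and 172 CPM in LD and 21.4 and 27.6 CPM in SD (log2 2.62, adjusted p = 1.6e-15), exceeding the wild type by 3.82 (adjusted p = 9.22e-15). In each of these genes both LD libraries lay above both SD libraries, and near copies may share reads. With replicate 1 added, the change in NR2 was 3.48 (adjusted p = 0.0149) and that in NIA2 0.59 (adjusted p = 0.433).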
